A study of Mus musculus with 65 samples.

Results

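The 10 genes described here belong to the ATF4 arm of the integrated stress response, and they were followed in mouse embryonic stem cells as these differentiated into embryoid bodies. They are Atf4, Atf5, Ddit3, Trib3, Chac1, Sesn2, Asns, Psat1, Phgdh and Slc7a11, chosen by gene symbol among the 24465 symbols counted in 17 RNA-seq libraries. All 10 were found and all 10 passed the filter on low counts, so every member entered the tests.

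In the integrated stress response, kinases that sense amino acid shortage, misfolded protein in the endoplasmic reticulum, haem deficiency or viral RNA phosphorylate the translation factor eIF2. General translation falls while the ATF4 mRNA is translated better, and the ATF4 protein, a basic leucine zipper (bZIP) transcription factor, binds C/EBP-ATF response elements and raises genes for amino acid synthesis, uptake and tRNA charging. Because ATF4 is controlled largely at translation, the RNA levels below measure its transcript and those of its targets, not the protein.

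The RNA came from 3 lines in 9 groups. Wild-type mouse embryonic stem cells were kept on gelatin in serum with leukaemia inhibitory factor (LIF) at day 0. They were made into rotating embryoid bodies without LIF and with 10 µM all-trans retinoic acid for days 3 and 6, so withdrawal of LIF, retinoic acid, culture form and time cannot be told apart. Cells edited with CRISPR/Cas9, either to knock out H3.3A or to carry H3.3K27A, were sampled at days 0 and 6 under the same culture. H3.3 is a histone H3 variant, and K27A replaces lysine 27, the residue that carries K27me3, with alanine. Neither the number of clones nor the gene edited in the H3.3K27A line is given in the sources used here. The 6 libraries of 2019 held wild-type cells at days 0, 3 and 6 (2 libraries each). The 11 libraries of 2020 held wild-type cells at day 0 (1 library) and day 6 (2 libraries) and both edited lines at days 0 and 6 (2 libraries each). ChIP-seq of wild-type cells gave 16 libraries in 8 groups, as biological duplicates of each of 4 antibodies (against H3, H3.3, H3K27me3 or H3.3K27me3) on either day. The labels do not say that the RNA duplicates were separate cultures, so a p-value covers only library-to-library spread, which may be technical.

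The RNA libraries held 6965704 to 12711698 counts in 2019 and 14270549 to 22032871 in 2020. H3f3a, the gene of H3.3A, checked the labels: it lay between 114 and 188 CPM (counts scaled to the TMM-adjusted size of the library, within each year) in the wild-type libraries and between 20.4 and 24.2 CPM in every library of either edited line, so its transcript was low in both. The 8 pluripotency markers fell by day 6 in every line. Their sum went from 6491 to 6821 CPM at day 0 to 278 to 284 CPM at day 6 in 2019, and in 2020 wild-type cells from 5584 CPM to 207 to 233 CPM. Markers of primitive and visceral endoderm rose in 9 of 10 cases and fell in 1 (Amn) in every line, and neural progenitor markers rose in 6 of 6 (2019) or 5 of 6 (2020). The day 6 mixtures differed by year: neuron markers summed to 1039 to 1252 CPM in 2019 and 145 to 265 CPM in 2020 wild-type cells, and mesoderm markers to 909 to 1088 CPM and 231 to 260 CPM. The duplicates of the H3.3A knockout at day 6 stood apart from each other, with a chi-square over degrees of freedom of 44.2 across genes against 2.22 to 7.72 for the other pairs. Their replicate 1 held 516 CPM of pluripotency markers and 2695 CPM of endoderm markers, and replicate 2 held 319 and 1743 CPM. In bulk RNA, fewer cells of a type cannot be told from less RNA per cell.

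The promoters of 4 members held the core of a C/EBP-ATF response element, written TGATGNAA and searched on both strands from 250 bases before to 50 bases after the start sites that RefSeq gives on GRCm38.p6. They are shown because they hold the match, whatever the size of their change. Capitals mark the match, each run reads 5′ to 3′ on the gene's strand, and no other motif was searched.
Trib3, chr2:152344028-152344057, reverse strand: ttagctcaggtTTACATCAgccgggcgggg
Chac1, chr2:119350992-119351111, forward strand: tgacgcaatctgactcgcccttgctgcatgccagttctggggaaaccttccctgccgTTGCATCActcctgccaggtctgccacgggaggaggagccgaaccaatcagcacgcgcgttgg
Slc7a11, chr3:50443620-50443739, reverse strand: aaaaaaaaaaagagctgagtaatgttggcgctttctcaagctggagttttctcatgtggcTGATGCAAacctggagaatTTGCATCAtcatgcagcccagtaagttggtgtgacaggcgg
Asns, chr6:7693210-7693329, reverse strand: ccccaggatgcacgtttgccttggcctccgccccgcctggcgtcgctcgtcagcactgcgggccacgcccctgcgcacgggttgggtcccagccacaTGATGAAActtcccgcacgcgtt
The match of Trib3 lay 14 bases after the start site, that of Asns 23 bases before it and that of Chac1 193 bases before it. Slc7a11 had a pair of matches, 66 and 47 bases before the start used, on opposite strands. That start, at 50443613, lies inside the span annotated for the gene, whose far end on this strand is 50499087 and was not searched. The motif was in 40.0% of the members' promoters, in 4.02% of the 17402 genes of the count tables that had a start site, and in 3.97% of the 32851 start sites. A match is a string of letters and not a bound site, and for the other 6 members only these windows were searched.

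By day 6 of differentiation 8 of the 10 genes had fallen in wild-type cells of 2019 and 8 in those of 2020, and 7 of these fell in both years, Trib3 and Chac1 by far the most. Of all genes tested, 36.6% fell in 2019 and 34.8% in 2020. Trib3 fell 46.2-fold in 2019 and 32.3-fold in 2020, and Chac1 20.1-fold and 41.4-fold. Psat1, Asns, Atf4, Phgdh and Sesn2 fell by 1.56- to 10.7-fold. Atf5 fell by less in 2019, Ddit3 did not pass the test, and Slc7a11 rose in 2019 and fell in 2020. Each of these is described in turn, regulators first.

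**Figure D1:**
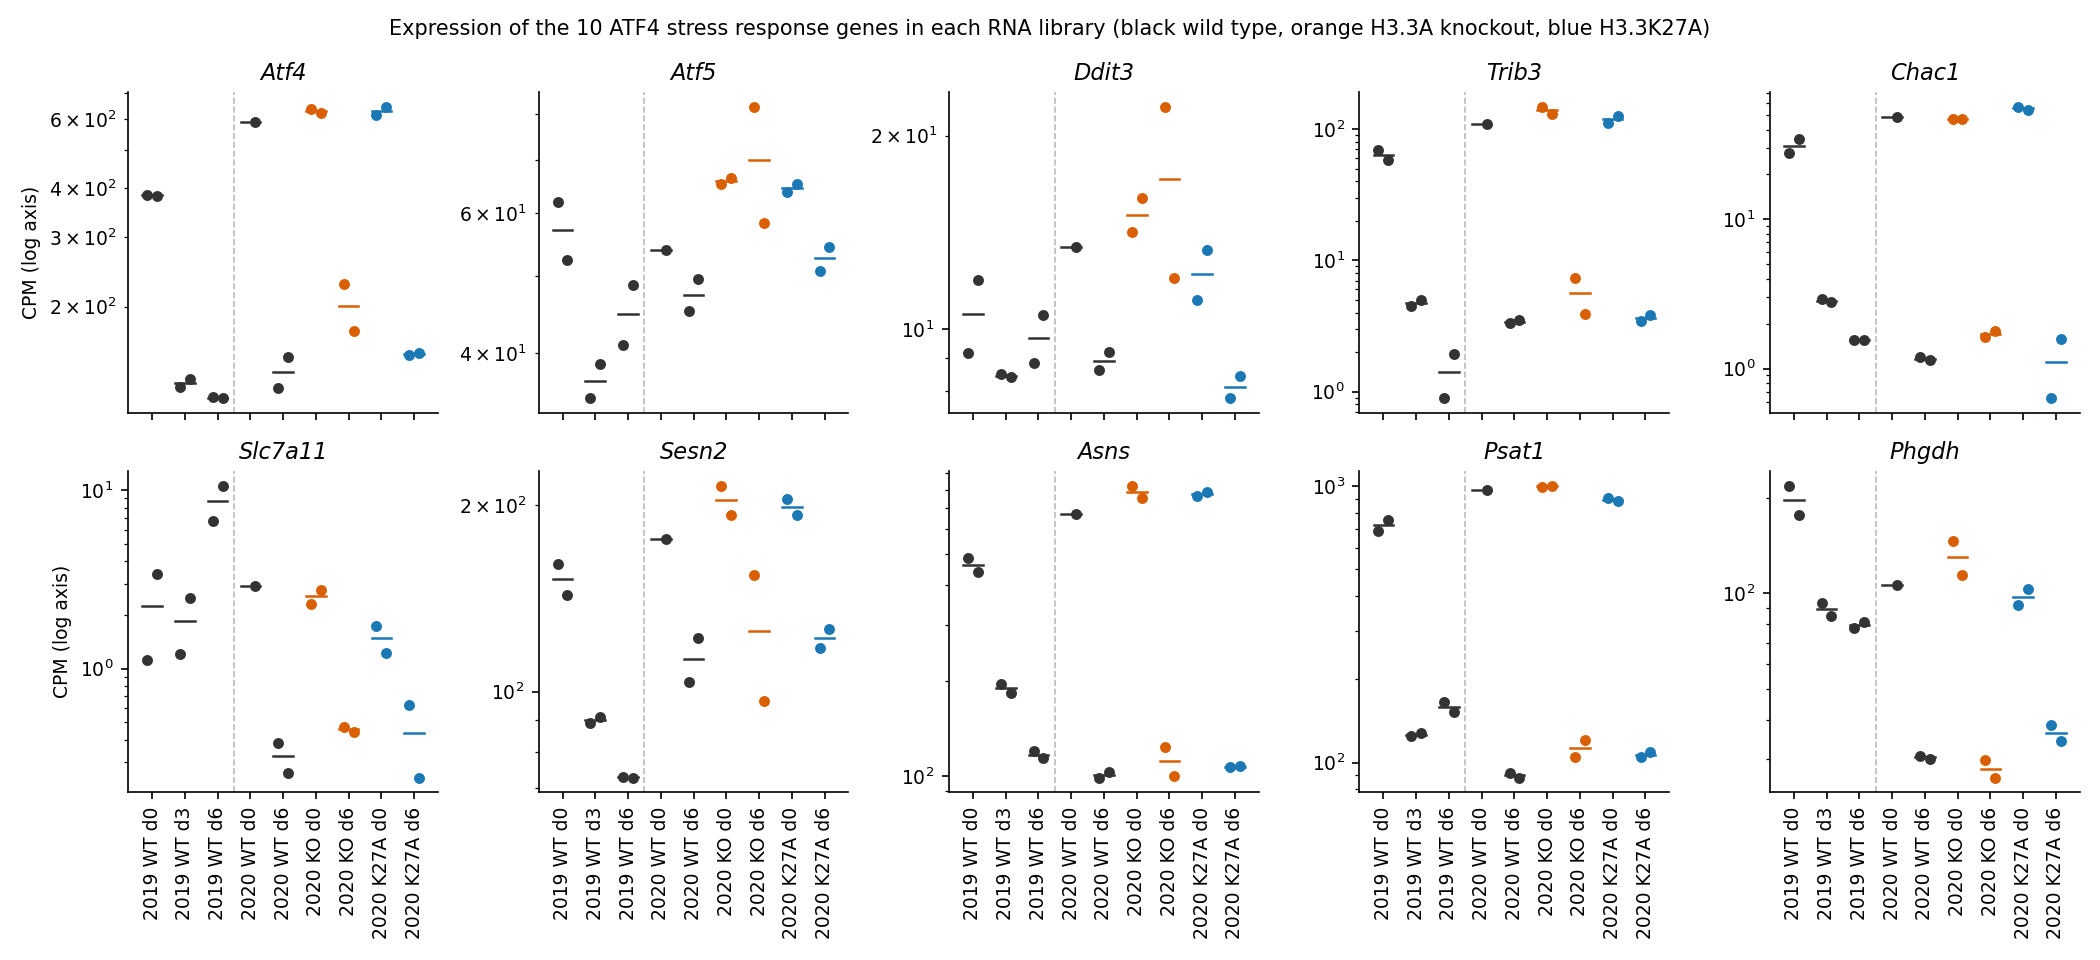
CPM (log axis) of each gene in all 17 RNA libraries. Points are libraries, short lines are group means, black is wild type, orange H3.3A knockout and blue H3.3K27A, and the dashed line separates 2019 from 2020. The day 0 libraries of Trib3, Chac1, Asns and Psat1 lie well above those of days 3 and 6, those of Ddit3 and Atf5 do not, and Slc7a11 is high at day 6 of 2019 alone.

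Atf4 (chr15:80255184-80257545, forward strand) encodes the transcription factor itself. Its level in 2019 was 384 and 384 CPM at day 0, 125 and 131 CPM at day 3, and 117 and 117 CPM at day 6. Its 2020 wild-type level was 592 CPM at day 0 and 124 and 148 CPM at day 6. Day 0 libraries were all above later ones, with no overlap. Most of the fall came by day 3, and both day 6 libraries of 2019 lay just below both of day 3. The log2 change was -1.59 ± 0.07 (approximate SE) from day 0 to day 3 (adjusted p = 4.79e-10, by edgeR's quasi-likelihood test adjusted after Benjamini and Hochberg over all genes, as for all p-values below) and -0.13 from day 3 to day 6 (adjusted p = 0.119). By day 6 it had fallen 3.28-fold in 2019 and 4.34-fold in 2020 (log2 -2.12 ± 0.15, adjusted p = 1.08e-06).

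Trib3 (chr2:152337425-152344060, reverse strand) encodes a pseudokinase that ATF4 and CHOP induce and that holds ATF4 activity back. It stood at 69.4 and 57.5 CPM at day 0 in 2019, 4.45 and 5.03 CPM at day 3, and 0.886 and 1.92 CPM at day 6, the last from 12 and 21 counts. The 2020 wild-type libraries went from 109.8 CPM to 3.31 and 3.49 CPM. It had the largest fall of the members in 2019, where it fell at both steps: by 3.73 ± 0.18 on the log2 scale from day 0 to day 3 (adjusted p = 1.5e-09) and by a further 1.80 ± 0.31 from day 3 to day 6 (adjusted p = 0.000294).

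Chac1 (chr2:119351242-119354326, forward strand) encodes an enzyme that breaks down glutathione. In 2019 it gave 28.0 and 34.4 CPM at day 0, 2.91 and 2.78 CPM at day 3, and 1.55 and 1.55 CPM at day 6 (21 and 17 counts). The 2020 wild-type libraries had 48.5 CPM at day 0 and 1.19 and 1.13 CPM at day 6 (31 and 26 counts). Day 0 again lay above all later libraries. The log2 change to day 3 was -3.46 ± 0.18 (adjusted p = 4.44e-09). The further step to day 6 was -0.87 ± 0.28 (adjusted p = 0.0187), and leaving out any 1 of the 4 libraries of those days ended that call (adjusted p from 0.0515 to 0.0892).

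Sesn2 (chr4:132492804-132510456, reverse strand) encodes a leucine sensor that restrains mTORC1, and it is also a p53 target. It measured 161 and 143 CPM at day 0, 89.1 and 91.0 CPM at day 3, and 72.9 and 72.7 CPM at day 6 of 2019. Wild-type cells of 2020 had 176 CPM at day 0 and 104 and 122 CPM at day 6. The groups did not overlap in either year. It fell by 1.06 ± 0.08 on the log2 scale to day 6 in 2019 (adjusted p = 5.4e-08) and by 0.64 ± 0.22 in 2020 (adjusted p = 0.023), where leaving out wild-type day 6 replicate 1 gave -0.53 and an adjusted p of 0.107. The step from day 3 to day 6 was -0.31 ± 0.08 (adjusted p = 0.00486, but 0.0514 without day 3 replicate 2).

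Atf5 (chr7:44812256-44816658, reverse strand) encodes a bZIP factor related to ATF4, and Ddit3 (chr10:127290793-127296291, forward strand) encodes CHOP, the factor tied to cell death under lasting stress. Atf5 had 62.0 and 52.4 CPM at day 0, 35.0 and 38.7 CPM at day 3, and 40.9 and 48.7 CPM at day 6 of 2019, and in 2020 wild-type cells 54.0 CPM and then 45.2 and 49.6 CPM. It fell by day 3 (log2 -0.62 ± 0.12, adjusted p = 0.000392). Its day 6 value of 2019 was -0.34 ± 0.12 (adjusted p = 0.0154, but -0.21 and 0.196 without day 6 replicate 1), and that of 2020 was -0.19 ± 0.17 (adjusted p = 0.328). The counting's strand setting is not given in the sources used here, and exons of Atf5 overlap Nup62 and Il4i1b on the opposite strand.

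Ddit3 gave 9.16 and 11.9 CPM at day 0, 8.50 and 8.405 CPM at day 3, and 8.86 and 10.5 CPM at day 6 of 2019. It gave 13.4 CPM at day 0 and 8.63 and 9.20 CPM at day 6 in 2020 wild-type cells. In 2019 day 0 and day 6 overlapped, and both day 3 libraries lay below those of the other days. No wild-type change of Ddit3 passed the test, with log2 values of -0.15 ± 0.19 by day 6 of 2019 (adjusted p = 0.457) and -0.59 ± 0.30 in 2020 (adjusted p = 0.104). In 2020 Ddit3 did pass under another setting of the fit. Ddit3 exons overlap Mbd6 and Mars1 on the opposite strand.

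The 3 enzymes of amino acid synthesis all fell. Asns (chr6:7675165-7693209, reverse strand), which makes asparagine, was at 486 and 441 CPM at day 0 of 2019, 196 and 184 CPM at day 3, and 119.8 and 114 CPM at day 6. Wild-type cells of 2020 went from 669.6 CPM to 99.1 and 103 CPM. Asns fell at both steps of 2019 (log2 -1.29 ± 0.07, adjusted p = 8.04e-09, then -0.70 ± 0.07, adjusted p = 5.65e-06), and 6.63-fold in 2020.

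Psat1 (chr19:15905123-15925059, reverse strand), a transaminase of serine synthesis, had 687 and 755 CPM at day 0 of 2019, 124 and 128 CPM at day 3, and 166 and 153 CPM at day 6. In 2020 wild-type cells it had 966 CPM at day 0 and 91.9 and 88.2 CPM at day 6. Its lowest point in 2019 was day 3: it fell by 2.51 ± 0.08 on the log2 scale to day 3 (adjusted p = 2.67e-11) and rose by 0.34 ± 0.07 from day 3 to day 6 (adjusted p = 0.00206). The fall to day 6 was 4.52-fold in 2019 and 10.7-fold in 2020.

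Phgdh (chr3:98313171-98339969, reverse strand), the first enzyme of serine synthesis, had 218 and 177 CPM at day 0 of 2019, 93.2 and 85.1 CPM at day 3, and 77.8 and 81.4 CPM at day 6. In 2020 wild-type cells it was at 106 CPM at day 0 and 30.8 and 30.1 CPM at day 6. Day 0 lay above the later days in both years. It fell by 1.14 ± 0.10 on the log2 scale to day 3 (adjusted p = 3.34e-07) and 2.47-fold by day 6 in 2019, and 3.48-fold in 2020.

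Slc7a11 (chr3:50364936-50499087, reverse strand), the cystine and glutamate exchanger that feeds glutathione synthesis, was the lowest member at day 0 and rose by day 6 in 2019 and fell in 2020. Its 2019 values were 1.12 and 3.37 CPM at day 0 (7 and 36 counts), 1.21 and 2.48 CPM at day 3 (15 and 33 counts), and 6.72 and 10.6 CPM at day 6 (91 and 116 counts). In 2020 wild-type cells it had 2.90 CPM at day 0 (53 counts) and 0.385 and 0.262 CPM at day 6 (10 and 6 counts). The day 6 libraries lay above day 0 in 2019 and below it in 2020. The log2 change to day 6 was 1.78 ± 0.40 in 2019 (adjusted p = 0.0012) and -3.13 ± 0.46 in 2020 (adjusted p = 0.000182), and in 2019 the rise came after day 3 (log2 2.196 ± 0.38 from day 3 to day 6, adjusted p = 0.000351).

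**Figure D2:**
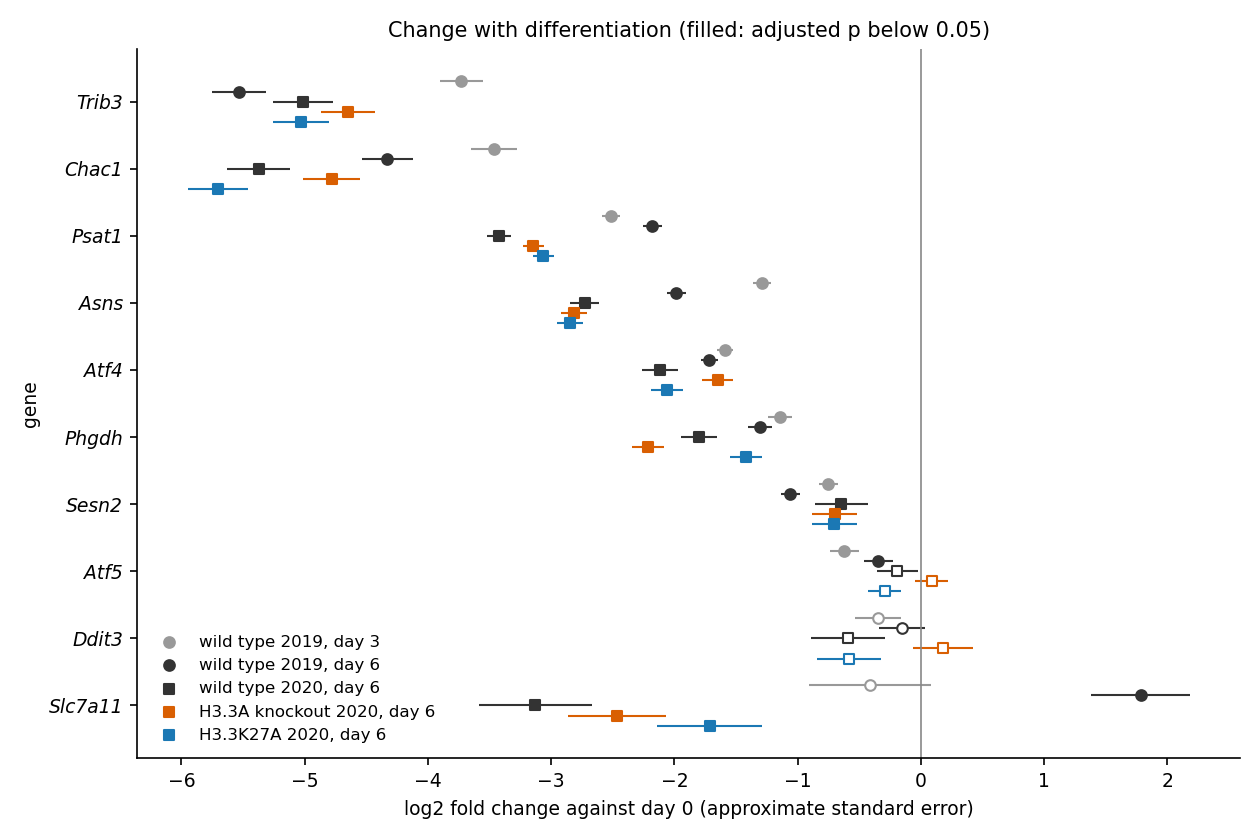
Log2 fold change against day 0 for each gene, with approximate standard errors. Circles are 2019 wild type (grey day 3, black day 6) and squares are 2020 at day 6 (black wild type, orange H3.3A knockout, blue H3.3K27A), filled where the adjusted p was below 0.05. Trib3 and Chac1 lie farthest left in every comparison, and Slc7a11 is the gene with filled symbols on both sides of 0.

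Counted over the list, 0 members rose and 8 fell by day 3 of 2019, where 37.6% of the 13593 genes tested rose and 33.8% fell. From day 3 to day 6, 2 rose (Psat1 and Slc7a11) and 4 fell (Trib3, Chac1, Sesn2 and Asns), against 29.4% and 27.9% of all genes. By day 6 of 2019, 1 rose and 8 fell, with 41.4% of all genes rising and 36.6% falling. In 2020 wild-type cells 0 rose and 8 fell, where 36% of the 14760 genes tested rose and 34.8% fell. The members' median log2 change was -1.21 by day 3 and -1.51 by day 6 of 2019 and -2.42 in 2020, beside medians over all genes tested of 0.06, 0.09 and 0.08. Most genes tested were called in these comparisons, so a call in itself says little about a member. In the authors' deposited table of day 6 against day 0, the log2 values were -5.44 for Trib3, -4.20 for Chac1, -1.82 for Atf4 and 1.26 for Slc7a11, and for Atf5 the adjusted p was 0.656.

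Levels of different genes were compared per kilobase of exon. At day 0 of 2020 wild-type cells the order in CPM per kilobase was Psat1 (388), Atf4 (342), Asns (283), Sesn2 (66.4), Phgdh (56.7), Trib3 (53.5), Chac1 (30.9), Atf5 (27.1), Ddit3 (5.28) and Slc7a11 (0.303). At day 6 it was Atf4 (78.9), Asns (42.7), Sesn2 (42.5), Psat1 (36.2), Atf5 (23.8), Phgdh (16.3), Ddit3 (3.51), Trib3 (1.66), Chac1 (0.742) and Slc7a11 (0.0338). Trib3 went from above Atf5 and Ddit3 to below them. Chac1 was above Atf5 at day 0 in this 1 library and in H3.3K27A at day 0 (35.4 against 32.4). It was below Atf5 at day 0 of 2019 (19.9 against 28.7) and in the knockout at day 0 (29.96 against 33.1). Asns and Sesn2 at day 6 differed by less than the spread between duplicates.

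The size of the wild-type change was compared between years in 1 fit of all 17 libraries. The 2020 change was lower than that of 2019 for Slc7a11 (difference in log2 change -4.95 ± 0.72, adjusted p = 0.000186), Psat1 (-1.26 ± 0.12, adjusted p = 6.52e-06) and Asns (-0.76 ± 0.15, adjusted p = 0.00171), so 3 of 10 members fell in this comparison, as did 19.7% of the 15343 genes tested. For the other 7 the difference did not pass the test, with -0.42 for Atf4 (adjusted p = 0.0895), -1.05 for Chac1 (adjusted p = 0.054) and 0.51 for Trib3 (adjusted p = 0.424). Fibroblast feeder markers summed to 9.3 to 12.2 CPM at day 0 of 2019 and to 203 CPM in 2020. The year stands for the sequencing date, the library depth and the cell mixtures at days 0 and 6, whose part in these differences was not tested, and the 2020 day 0 value rests on 1 library.

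Most members also fell in both edited lines. In the H3.3A knockout 0 members rose and 8 fell by day 6, where 40.8% and 36.4% of genes did, and in H3.3K27A 0 rose and 8 fell, where 39.5% and 37.2% did. Trib3 went from 148 and 129 CPM to 7.28 and 3.90 CPM in the knockout and from 111 and 126 CPM to 3.42 and 3.82 CPM in H3.3K27A. Chac1 went from 46.8 and 47.2 CPM to 1.62 and 1.77 CPM in the knockout, and in H3.3K27A from 57.0 and 54.2 CPM to 0.629 and 1.57 CPM. These 2 genes again moved most in each line, with no overlap between days.

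Asns went from 823 and 753 CPM to 124 and 99.96 CPM in the knockout and from 763 and 784 CPM to 107 and 108 CPM in H3.3K27A. Psat1 went from 996 and 1003.7 CPM to 105.05 and 121 CPM in the knockout and from 905 and 885 CPM to 104 and 109 CPM in H3.3K27A. Atf4 went from 638 and 622 CPM to 228 and 174 CPM in the knockout, and from 617 and 647 CPM to 150.5 and 152 CPM in H3.3K27A. Day 0 and day 6 did not overlap for these 3 genes in either line, a separation not counted over all genes. Their log2 changes were -2.81, -3.14 and -1.65 in the knockout and -2.85, -3.06 and -2.06 in H3.3K27A.

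Slc7a11 fell in both edited lines as in 2020 wild-type cells. It went from 2.32 and 2.76 CPM to 0.471 and 0.443 CPM in the knockout (log2 -2.46 ± 0.40) and from 1.75 and 1.22 CPM to 0.629 and 0.245 CPM in H3.3K27A (log2 -1.71 ± 0.43, adjusted p = 0.00452). The 2 members that did not pass the test were Atf5 and Ddit3, with log2 values of 0.09 ± 0.14 and 0.18 ± 0.24 in the knockout and -0.29 ± 0.14 and -0.58 ± 0.26 in H3.3K27A. Other settings, apart from leaving a library out, called 8 to 10 members in H3.3K27A, so both passed in at least 1 of them. The values of Atf5 and Ddit3 in the knockout turned to -0.19 and -0.35 without day 6 replicate 1.

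At day 0 no member differed between lines by edgeR's quasi-likelihood test. The number was 0 for H3.3A knockout against wild type (0 at an unadjusted p under 0.05), where 0.122% of genes were called, 0 for H3.3K27A against wild type (1 unadjusted) with 1.73% of genes called, and 0 for H3.3K27A against the knockout (1 unadjusted) with 1.27% called. DESeq2 also called 0 members in each. The log2 differences from the single wild-type library ran from -0.19 ± 0.39 (Slc7a11) to 0.34 ± 0.21 (Trib3) in the knockout and from -0.95 ± 0.41 (Slc7a11) to 0.26 ± 0.17 (Atf5) in H3.3K27A. The wild-type value rests on 1 library, and a difference that misses the threshold does not show equal levels.

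At day 6 the knockout libraries were higher than wild type for 4 members and lower for 0, where 6.98% of genes rose and 4.42% fell. Atf4 stood at 228 and 174 CPM in the knockout against 124 and 148 CPM in wild type (log2 0.56 ± 0.13, adjusted p = 0.0231). Ddit3 stood at 22.2 and 12.02 CPM against 8.63 and 9.20 CPM (log2 0.94 ± 0.25, adjusted p = 0.0406). Atf5 stood at 81.8 and 58.4 CPM against 45.2 and 49.6 CPM (log2 0.56 ± 0.14, adjusted p = 0.0302). Psat1 stood at 105.05 and 121 CPM against 91.9 and 88.2 CPM (log2 0.33 ± 0.08, adjusted p = 0.0308). In all 4 genes both knockout libraries were above both wild-type libraries. The same held for Trib3, Chac1 and Slc7a11, which did not pass the test. Phgdh, which did not pass it either, separated the other way (29.8 and 26.3 CPM against 30.8 and 30.1 CPM). Such separation was not counted over all genes. In Atf4, Ddit3 and Atf5 replicate 1 was the higher.

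Trib3 had a larger log2 difference than Atf4, with 7.28 and 3.90 CPM against 3.31 and 3.49 CPM (log2 0.70 ± 0.25, adjusted p = 0.106), and did not pass the test. Chac1 (0.55 ± 0.31), Slc7a11 (0.48), Sesn2 (0.15 ± 0.18), Asns (0.15) and Phgdh (-0.12) did not pass it either. The members' median was 0.51, and that of all genes 0.03. Which libraries entered decided the calls: without knockout day 6 replicate 1 there were 3 (Atf4 0.32, adjusted p = 0.0217; Atf5 0.27, adjusted p = 0.0416; Psat1 0.40, adjusted p = 0.00128), while Ddit3 gave 0.40 and an adjusted p of 0.0833. Without knockout replicate 2 there were 7, in a fit whose calls over all genes went from 1683 to 6002. Without either wild-type day 6 library there were 0, with as few as 210 genes called, and in a fit of these 4 libraries alone 0, with 3 genes called. The endoderm markers, 8 of 10 of which rose here, summed to 1743 to 2695 CPM in the knockout and 1029 to 1185 CPM in wild type, and their part in the members' difference was not tested.

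**Figure D3:**
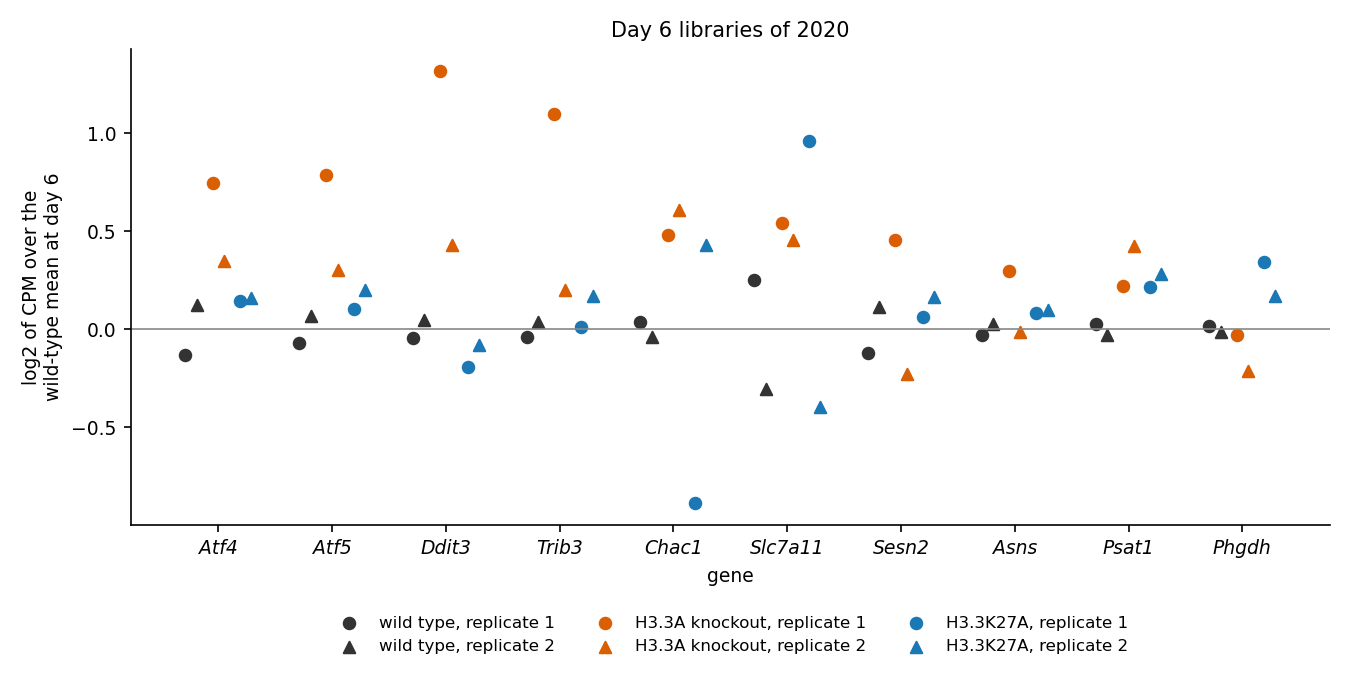
Log2 of each day 6 library's CPM over the mean of the 2 wild-type libraries of 2020, by gene. Colour gives the line (black wild type, orange H3.3A knockout, blue H3.3K27A) and shape the replicate (circle 1, triangle 2). Knockout replicate 1 lies above replicate 2 for Atf4, Atf5, Ddit3, Trib3 and Sesn2 among others, and the H3.3K27A libraries lie near 0 for most genes.

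H3.3K27A at day 6 did not differ from wild type for any member by edgeR's quasi-likelihood test (0 called, 1 at an unadjusted p under 0.05, 0 by DESeq2), where 2.04% of genes were called. The values ran from -0.14 ± 0.25 (Ddit3) to 0.46 ± 0.50 (Slc7a11), with 0.15 ± 0.13 for Atf4. Against the knockout, 0 members rose and 2 fell, with 9.03% of genes rising and 9.64% falling. Ddit3 fell by 1.07 ± 0.25 on the log2 scale (7.79 and 8.43 CPM against 22.2 and 12.02 CPM, adjusted p = 0.0168) and Atf4 by 0.41 ± 0.13 (adjusted p = 0.049). Both comparisons with the knockout share its 2 libraries. Without knockout replicate 1, Ddit3 stayed lower (-0.55, adjusted p = 0.0142), Atf4 did not pass (-0.18, adjusted p = 0.151), and Sesn2 (0.36, adjusted p = 0.0142) and Phgdh (0.49, adjusted p = 0.0173) were higher in H3.3K27A.

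Whether a line changed the fall itself was tested as a difference of day 6 changes. By edgeR, 0 members passed for the knockout against wild type (2 unadjusted, 0 by DESeq2, 0.0813% of genes) and 0 for H3.3K27A against wild type (1 unadjusted, 0 by DESeq2, 0.766% of genes). For H3.3K27A against the knockout 1 member, Phgdh, was higher, where 3.23% of genes rose. Phgdh went from 146 and 114 CPM to 29.8 and 26.3 CPM in the knockout and from 91.8 and 103 CPM to 38.6 and 34.2 CPM in H3.3K27A. The lines did not overlap on either day and changed places between them. The difference was 0.79 ± 0.18 (adjusted p = 0.0378), with 0.61 to 0.96 and adjusted p from 0.00274 to 0.171 over the alternative settings.

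The wider pathway was read from 9 gene lists, whose day 6 counts stand beside 41.4% of all genes rising and 36.6% falling in 2019, and 36% and 34.8% in 2020. The synthetase list held aminoacyl-tRNA synthetases, which charge tRNAs with amino acids, and Xpot, a gene for tRNA export. Of its 13 genes 12 were tested, and 12 of 12 fell by day 6 in wild-type cells of either year. Cars, Lars and Nars changed by -2.07, -1.92 and -1.91 on the log2 scale in 2019. Of the enzymes for serine, proline and folate-bound carbon, 10 of 11 fell in 2019 and 11 of 11 in 2020, and none rose. Mthfd2, a mitochondrial folate enzyme, went from a mean of 219 to 34.6 CPM in 2019 and from 315 to 17.4 CPM in 2020.

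Amino acid transporters fell in 6 of 8 cases in 2019 and 8 of 9 in 2020. Slc7a3, a carrier of cationic amino acids, dropped from 246 to 1.92 CPM in 2019 (log2 -7.02 ± 0.15, adjusted p = 7.67e-13) and from 347 to 3.40 CPM in 2020, more than any of the 10 members. Of the other ATF4 targets, 1 rose and 7 fell of 10 in 2019, and 11 of 12 fell in 2020. Cth, which makes cysteine, went from 143 to 8.41 CPM in 2019 (log2 -4.09 ± 0.11) and by -5.18 in 2020.

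The list of upstream genes held the eIF2 kinases, Eif2s1 of eIF2, the Eif2b genes of eIF2B, which is distinct from eIF2, and phosphatase genes. Of these, 9 of 12 fell in 2019, and in 2020 1 rose and 9 fell. Eif2s1, the phosphorylated subunit, changed by -1.29 ± 0.09 in 2019 and -1.79 in 2020. The bZIP partners of ATF4 split, with 7 of 13 rising and 2 falling in 2019 and 4 of each in 2020, Fosl2 going up (3.33 and 2.22) and Junb down (-2.82 and -1.86).

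Neighbouring stress pathways were counted in the same way. Chaperones and other genes of the XBP1 and ATF6 arms, which answer misfolded protein, had 3 rising and 7 falling of 14 in 2019, then 2 and 6. NRF2 targets, which answer oxidants, had 0 and 6 of 7, then 1 and 4 of 8. Targets of p53 had 4 rising and 6 falling of 12 in 2019, then 8 and 1, with Cdkn1a up by 0.58 and 2.07.

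**Figure D4:**
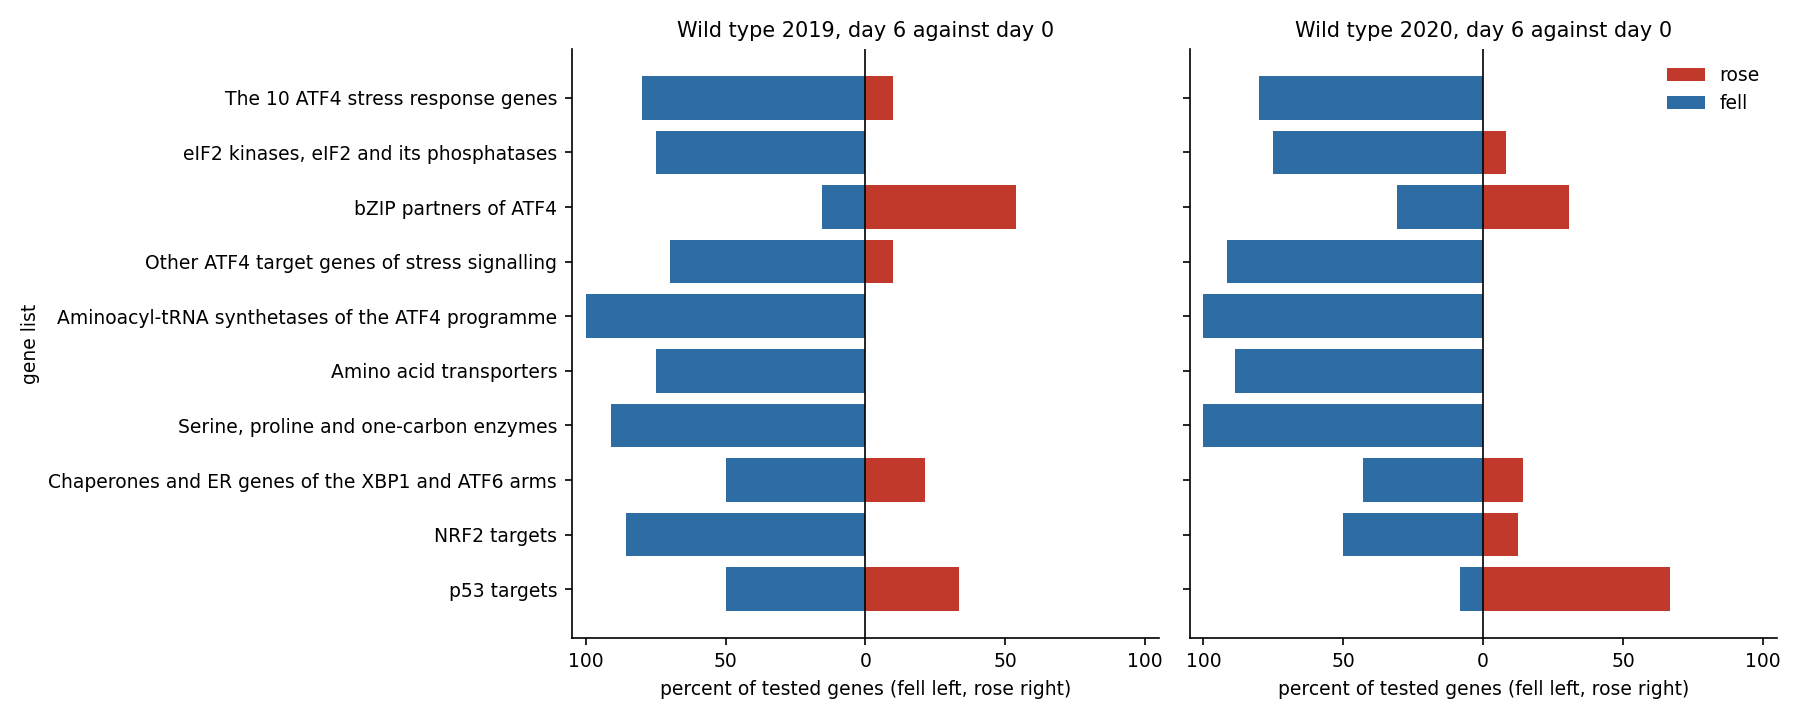
Percent of tested genes in each list that rose (red, right) or fell (blue, left) by day 6 in wild-type cells of 2019 (left panel) and 2020 (right panel), at an adjusted p below 0.05. The synthetase list, which also holds Xpot, reaches 100 on the falling side in both years, and the bZIP and p53 lists reach to both sides.

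In the knockout against wild type at day 6, where 6.98% of all genes rose and 4.42% fell, chaperones and genes of the XBP1 and ATF6 arms rose in 11 of 14 cases, among them Xbp1 (log2 0.90 ± 0.16, adjusted p = 0.00964) and Calr (0.79, adjusted p = 0.00726), and in H3.3K27A against the knockout 12 of 14 fell, where 9.64% of all genes did. In the knockout against wild type, 1 of the 12 upstream genes rose and 1 fell. The riser was the kinase gene Eif2ak3 (PERK), by 0.53 ± 0.09 (adjusted p = 0.00788). Transporters rose in 3 of 9 cases, led by Slc1a4 (1.26 ± 0.14, adjusted p = 0.00144), genes of the synthetase list in 3 of 12 and other ATF4 targets in 3 of 12 with 1 falling. These rises came in the 2 libraries with the endoderm sums given above, which both comparisons with the knockout share. Of the chaperone list, 0 of 14 were called in H3.3K27A against wild type at day 6, where 2.04% of all genes were. In the day 6 change of the knockout against that of wild type 0 of 14 were called, where 0.0813% of genes were. How the list counts move with a library left out was not tested.

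Each member's log2 levels were standardised and their median taken in every library. Among 8758 other genes with a mean of at least 10 CPM in each year, those that followed this median most closely over the 6 libraries of 2019 and the 11 of 2020 were Mars (smaller Pearson r of the years 0.9984), Nup85 (0.9978), Naa16 (0.9977), Aars (0.9976) and Mphosph10 (0.9976). The libraries share the contrast of day 0 with later days, and Mars went from a mean of 437 CPM at day 0 to 153 and 126 CPM at days 3 and 6 of 2019. Within the list, 7 members had an r of at least 0.91 with the median of the others in both years. Slc7a11 had -0.51 in 2019 and 0.94 in 2020, Ddit3 0.45 and 0.46, and Atf5 0.77 and 0.44.

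Chromatin at the start sites was read from the authors' filtered peaks in wild-type cells, counting a gene when both duplicates had a peak within 1 kb. H3K27me3 is the mark of Polycomb repression, and the H3.3K27me3 antibody reads it on the variant histone. The number of members was 0 at day 0 and 0 at day 6 for H3.3K27me3, where 10.5% and 2.47% of 17402 genes had such a peak, and 0 and 0 for H3K27me3, with 17.6% and 10.6%. Total H3 gave 0 and 0, with 5.23% and 2.07%. With so few members, counts of 0 are not far from the shares of all genes. The part of K27me3 in the loss of RNA was not tested. Within 5 kb, both duplicates had an H3K27me3 peak at Chac1 at day 0 and at Psat1 at day 6, where 20.3% and 12.6% of genes did.

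H3.3 peaks were present in both duplicates at 4 members at day 0 (Atf4, Ddit3, Trib3 and Sesn2) and at 4 at day 6 (Atf4, Ddit3, Sesn2 and Psat1), where 38.5% and 26.4% of genes had one. The fold enrichment given by the authors' peak caller was 4.19 and 2.502 at Atf4 at day 0, and 3.13 and 2.46 at day 6. At Trib3 it was 3.41 and 3.60 at day 0, with no filtered peak at day 6. None of these peaks reached an enrichment of 5, and the members' shares are near those of all genes.

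K27me3 peaks in single libraries were found at Psat1 (H3.3K27me3 at day 0 in replicate 2, enrichment 2.37) and at Chac1. For Chac1 they were H3.3K27me3 at day 0 in replicate 1 (enrichment 4.07), and H3K27me3 at day 0 in replicate 1 (7.24) and at day 6 in replicate 2 (2.77). The region that covers the start of Chac1 in the authors' deposited table of H3K27me3, 44288 bases long, had a log2 value of day 0 minus day 6 of 0.59 (false discovery rate 7.51e-05), with normalised signals of 2391 and 2742 at day 0 and 1814 and 1590 at day 6. H3K27me3 signal over that region was lower at day 6. The region runs from 119308286 to 119352573, mostly before the Chac1 start at 119351242, and holds other sequence besides the gene. Over all genes, H3K27me3 peaks at start sites went from 17.6% at day 0 to 10.6% at day 6. How all H3K27me3 regions moved was not compared here, and any link to the Chac1 transcript was not tested. In the authors' deposited table for H3.3, the regions that reach within 1 kb of members' start sites were 12782 to 432458 bases long. Their values were 0.44 for Trib3 (202728 bases, false discovery rate 2.2e-18), 0.41 for Asns (0.00222), 0.39 for Atf5, 0.37 for Ddit3, 0.35 for Sesn2, 0.13 for Atf4 (0.223) and 0.08 for Psat1 (0.206). How all H3.3 regions moved was not compared here. Over all genes, H3.3 peaks at start sites went from 38.5% at day 0 to 26.4% at day 6. Slc7a11 and Phgdh had no filtered peak within 1 kb of the start used in any of the 16 libraries, a start that for Slc7a11 lies inside its annotated span.

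**Figure D5:**
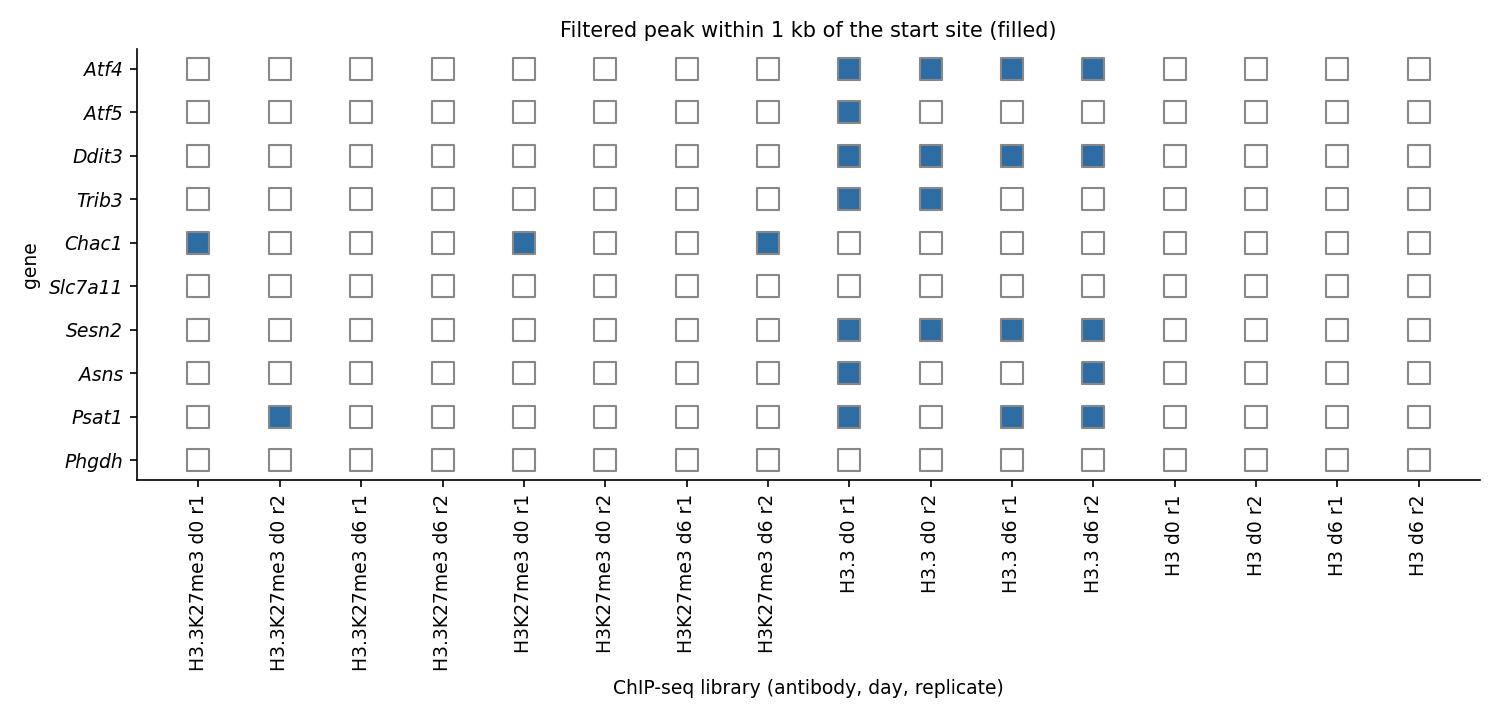
Filtered peaks within 1 kb of each gene's start site in the 16 wild-type ChIP-seq libraries (columns: antibody, day and replicate). Filled squares mark a peak and open squares none. Filled squares gather in the H3.3 columns, with single ones for Chac1 and Psat1 under the K27me3 antibodies and none under H3.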

How the data were processed

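Gene counts were deposited by the authors as raw whole-number counts per symbol; the submitters' processing notes name STAR 2.5.2a, HTSeq and mm10. HTSeq's non-gene rows were left out of library sizes (no-feature reads were 25.74% to 43.29% in 2019 and 11.32% to 16.78% in 2020). The members and lists were chosen with earlier results of these data known. The libraries of 2019 and 2020 were fitted separately with edgeR 4.0.16 (R 4.3.3, filterByExpr, TMM scaling, quasi-likelihood test, 1 mean per group), and together for the difference between years. P-values were adjusted over all genes tested, with a threshold of 0.05 in 16 comparisons. Standard errors came from the log2 change and its F statistic and are approximate. Whether groups overlapped was read for named genes only, so it describes a gene and has no share over all genes beside it. CPM (counts per TMM-scaled library size) were scaled within each year. The script was tested on simulated counts with known folds. For the knockout against wild type at day 6, 28.4% of 1.5-fold and 64.2% of 2-fold changes were recovered. For day 3 against day 0 of 2019, 52.2% and 70.1% were.

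Genes named are the 10 members, H3f3a, the 3 genes of a pathway list with the largest change among those called in a comparison, and the 5 genes closest to the members' median pattern (Pearson r of log2 of CPM plus 0.5). Amn, Junb in 2020 and Cdkn1a in 2019 were named after their values were seen. The 8 cell type lists also held trophoblast (3 rose and 1 fell of 4 by day 6 of 2019), endothelium and blood (2 and 2 of 6) and fibroblast feeders (2 and 1 of 3).

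Peaks were called by the authors with MACS 2.2.6, per the file headers, without a control library, at a p-value cutoff, and the filter behind the deposited lists is not given in the sources used here. Each peak's ratio (fold enrichment) is the authors'. The authors' deposited DiffBind tables give log2 changes, p-values and a signal scaled between libraries, and the score of a peak as deposited was not used. DESeq2 1.42.0, other scalings and filters, a replicate block, fewer samples per fit and each library left out were tried. Promoters came from RefSeq's GRCm38.p6 table.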

Additional observations from a re-analysis of the deposited data

Results flagged for a closer look

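For 4 members the change from day 0 to day 6 differed between groups by a test of the difference itself. The wild-type change of Slc7a11 was lower in 2020 than in 2019 by a log2 difference of -4.95, and every wild-type library at day 6 lay above day 0 in 2019 and below it in 2020. The same difference between years was -1.26 for Psat1 and -0.76 for Asns, both of which fell in each year. For Slc7a11, Psat1 and Asns the values over the alternative settings ran from -6.07 to -4.48, from -1.34 to -1.18 and from -0.82 to -0.70. Phgdh fell by less in H3.3K27A than in the H3.3A knockout, with a log2 difference of 0.79.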

How the results depend on the processing

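Of 825 values of single members recomputed under other settings, 752 kept their side of the threshold, 41 lost it, 29 gained it and 3 reversed. A value counted as reversed when its sign changed and it was called in either setting. A change of sign with no call in either setting counts among the 752. Over days, 476 of 480 kept their sign. The 3 reversals came without knockout day 6 replicate 1: Atf5 (-0.19, and 0.31 without replicate 2) and Ddit3 (-0.35 and 0.56) from day 0 to day 6 in the knockout, and Sesn2 in H3.3K27A against the knockout at day 6 (0.36 and -0.34). The fit without that library was 1 of a series that left out, in turn, each library of a group with 2. Attention to it came after the data were seen. The number of members called for H3.3K27A against the knockout at day 6, 2 in the report, was 1 with DESeq2 size factors, 4 without a filter, 4 with both years in 1 fit and 0 with only these groups. With only the groups compared, the number was also 1 for the knockout against wild type at day 0, 1 for H3.3K27A against the knockout at day 0, 0 for the knockout and 1 for H3.3K27A against wild type at day 6, 1 and 0 for the day 6 changes of H3.3K27A against wild type and the knockout, and 6 for the years, as without a filter (6). Over days, settings other than a left-out library gave 8 members by day 3 and 5 to 9 from day 3 to day 6. By day 6 they gave 8 to 9 in wild type of either year, 8 in the knockout and 8 to 10 in H3.3K27A. The cause of these shifts was not tested.

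Replicate numbers did not pair the libraries (correlations of deviations from -0.03 to 0.10 in 2019 and -0.47 to 0.20 in 2020). With a replicate block 1 member was called in each of the knockout and H3.3K27A comparisons at day 6 that involve the knockout, and 0 for the day 6 change of H3.3K27A against the knockout.

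Leaving out 1 library at a time gave 8 to 10 members called from day 0 to day 3, 4 to 6 from day 3 to day 6, 8 to 9 from day 0 to day 6 in 2019, 7 to 8 in 2020 wild type, 8 to 10 in the knockout, 8 in H3.3K27A and 3 to 4 between years. It gave 0 to 7 for the knockout against wild type at day 6, 0 to 6 for H3.3K27A against the knockout, and 0 to 4 and 0 to 5 for the day 6 changes of the knockout against wild type and of H3.3K27A against the knockout.

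For ChIP-seq, counting a peak in 1 duplicate gave 2 members for H3.3K27me3 at day 0, 1 for H3K27me3 at day 0, 1 at day 6 and 7 for H3.3 at day 0. A window of 5 kb gave 1 for H3K27me3 at each day. An enrichment of at least 5 gave 0 for H3.3 at day 0 and 0 at day 6.

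Counts over all genes moved widely between lines: the knockout against wild type at day 6 called 1683 genes, 3 to 2418 under other settings and 210 to 6002 without 1 library. For H3.3K27A against the knockout at day 6 the 2756 became 208 to 3401 and 719 to 5794, and against wild type the 301 became 145 to 2188 and 9 to 24. At day 0 the 18, 256 and 187 genes of the knockout against wild type, H3.3K27A against wild type and H3.3K27A against the knockout became 5 to 364, 117 to 1390 and 85 to 1019, or 3, 40 to 50 and 19 to 25 without 1 library. The differences of day 6 changes, 12, 113 and 796 in the same order, became 0 to 203, 36 to 882 and 430 to 1281, or 0 to 2805, 28 to 36 and 170 to 3897. Depth limits Slc7a11, Trib3 and Chac1 most, whose lowest libraries held 5, 12 and 16 counts.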
